A study of Rattus norvegicus with 16 samples.

Results

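The kidney outer medulla of young rats without test compound was compared between 28 and 14 days of daily vehicle gavage. The comparison used 6 of the 16 arrays of the series, chosen by their titles: the 3 arrays of vehicle day 28 and the 3 arrays of vehicle day 14. All animals were male Crl:CD Sprague-Dawley rats dosed by mouth once a day from 5 weeks of age, so the day 28 rats were 9 weeks old and the day 14 rats 7 weeks old. Both groups received corn oil without the test compound, and each array carried the RNA of 1 of the rats in its group. The other arrays used were 3 of day 28 and 3 of day 14 from rats given 750 mg/kg of 2-amino-4-nitrophenol (ANP) a day in corn oil, and 1 vehicle array each at days 1 and 7, for which the RNA of 3 rats was mixed. The ANP arrays served to estimate the spread and to give the day 28 against day 14 contrast in other animals. In those rats the contrast also spans 28 against 14 days of ANP dosing, so age and length of dosing cannot be told apart. The mixed arrays are given as values only. How the outer medulla was cut from the kidney is not given in the sources used here.

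The outer medulla lies between the cortex and the inner medulla of the kidney. It holds the straight S3 segment of the proximal tubule, the thick ascending limb of the loop of Henle, thin descending limbs, collecting ducts and bundles of vasa recta. Glomeruli, convoluted proximal tubules and the distal convoluted and connecting tubules lie in the cortex, and their transcripts are used here to gauge how much cortex a sample holds. In the weeks after weaning the rat kidney still grows, with tubule cells dividing and interstitial matrix being laid down, and both slow as the animal matures.

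Each value below is the log2 fluorescence of the brightest probe of a gene minus the 75th percentile of its array, so 0 is the brightness of the probe at that percentile and 1 unit is a doubling. Probes differ in efficiency, and levels are therefore compared between arrays and not between genes. On the 6 arrays, 64.75 to 66.96% of 61657 probes were well above background, replicate arrays correlated at r = 0.987 to 0.994, and no probe was saturated. The 3 day 28 arrays lay on 1 slide and the 3 day 14 arrays on another, so within the vehicle animals age and slide cannot be told apart. The ANP day 14 group, with 2 arrays on the day 28 slide and 1 on the day 14 slide, allowed a fit with slide as a block. Nothing in the labels pairs animals between the ages, and the number of arrays limits the precision.

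At day 28, 852 of 11628 genes were higher than at day 14 and 510 were lower (limma, Benjamini-Hochberg adjusted p under 0.05). These are 7.33% and 4.39% of the genes tested, or 11.7% in either direction, and 336 of the higher and 115 of the lower genes differed at least 2-fold. The log2 ratio of day 28 over day 14 had a median of 0.84 in the higher genes and -0.70 in the lower genes, against 0.01 over all genes. The day 28 and day 14 arrays did not overlap for 1358 of the 1362 called genes, while 35.1% of all genes tested did not overlap (16.1% with day 28 below day 14). A further 19883 probes without a gene name gave 724 higher and 470 lower, or 6.01%.

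Leaving out 1 array at a time changed these counts. Without day 28 replicate 1 the test called 407 genes higher and 132 lower, and without day 28 replicate 2 it called 327 and 138. Without day 14 replicate 2 the counts were 434 and 185, and without day 14 replicate 3 they were 446 and 184. All 1362 genes kept their sign in all 6 of these fits. For the 1358 genes whose groups do not overlap, leaving out 1 array cannot turn the sign, so this is no check. In every one of the 6 fits 396 genes (308 higher and 88 lower) were called. Among the 90 called genes named in the text these were 38, namely Klk1b3, Etv1, Prima1, Ism1, Gfra1, Slc26a4, Rxrg, Hmx2, Reln, Smoc2, Alx1, Vtcn1, Colec12, Liph, Slc5a2, Slc5a12, Slc34a3, Wt1, Podxl, Slc12a3, Trpv5, Slc22a7, Cryab, Insrr, Atp6v1g3, Atp6v1b1, Hsd11b2, Nusap1, Tnc, Igfals, Pth1r, Mt1, Kdr, Pparg, Lhx1, Rab3b, Cldn22 and Kcnb2. Some of them, such as Rab3b, Cldn22 and Kcnb2, entered the test only through their brighter group. The 6 fits used the same choice of genes, so they are no check on this. With slide as a block 2 genes were called, 1 in each direction, and 1643 had an unadjusted p under 0.05. In that fit 1361 of the 1362 genes kept their sign, the medians were 0.86 and -0.64, and the median standard error was 0.24 against 0.13 without the block. Its slide difference rests on 1 ANP day 14 rat on the day 14 slide against 2 on the day 28 slide. Slide and differences between these rats cannot be told apart, so the kept signs are no check on a slide effect.

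The tissue checks showed outer medulla together with cortex. Uromodulin (Umod), the main secreted protein of the thick ascending limb, was at 9.16, 9.12 and 9.31 in the day 28 arrays and at 9.30, 9.29 and 9.24 in the day 14 arrays. The groups overlapped, with a log2 ratio of -0.08 ± 0.09 (SE). The S3 cystine transporter Slc7a13 was at 8.07, 7.99 and 8.24 at day 28 and at 8.52, 8.48 and 8.43 at day 14 (-0.38 ± 0.15, adjusted p = 0.139). Podocyte and convoluted-tubule transcripts were well above background on all 6 arrays for 40 of the 41 cortex marker genes tested.

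Of 41 cortex marker genes tested among 43 listed, 20 were higher at day 28 and none was lower, against 7.33% and 4.39% of all genes. With 1 array left out between 12 and 23 of them were called higher, 12 without day 28 replicate 2. A cortex score, the mean over these 41 genes of convoluted proximal tubule, glomerulus and juxtaglomerular cells with each gene centred over the 6 arrays, was 0.52, 0.56 and 0.35 at day 28, against -0.11, -0.49 and -0.84 at day 14. Every day 28 array lay above every day 14 array, and the day 14 arrays were spread more widely. The difference of 0.96 had an exact two-sided permutation p of 0.1, the smallest that 3 against 3 arrays allow. The median log2 ratio of the 41 genes was 0.88. Fewer cells of a type and less RNA per cell cannot be told apart in such samples.

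Of 24 convoluted proximal tubule genes tested, 11 were higher at day 28 and none was lower, against 7.33% and 4.39% of all genes. Their median log2 ratio was 0.94. Slc5a2, which encodes the glucose transporter SGLT2, was at 6.73, 6.91 and 6.53 at day 28, against 5.49, 4.29 and 3.34 at day 14. It was 5.11-fold higher (2.35 ± 0.43, adjusted p = 0.00879), and the day 14 arrays covered more than 2 log2 units while the day 28 arrays stayed close together. The lactate transporter gene Slc5a12 (2.47 ± 0.46), the organic anion transporter gene Slc22a8 (2.40 ± 0.51) and the phosphate transporter gene Slc34a3 (2.29 ± 0.44) were higher as well. Slc34a1, the main renal phosphate transporter, which is made in both the convoluted and the straight proximal tubule, was at 7.98, 8.03 and 8.04 at day 28, against 7.84, 7.47 and 7.06 at day 14. Its groups did not overlap, but the difference did not pass the test (0.56 ± 0.18, adjusted p = 0.0688). Without day 14 replicate 2 the list had 7 called genes, and without day 28 replicate 2 it had 6.

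Of 17 glomerular and juxtaglomerular genes tested, 9 were higher and none was lower, against 7.33% and 4.39% of all genes. The median was 0.70. Nephrin (Nphs1), a protein of the podocyte slit diaphragm, was at 0.84, 0.65 and 0.31 at day 28, against -0.57, -1.32 and -2.30 at day 14 (2.00 ± 0.42, adjusted p = 0.0154). The podocyte transcription factor gene Wt1 was at -0.33, -0.43 and -0.80 at day 28, against -1.71, -2.63 and -3.46 at day 14, and was 4.22-fold higher. Podocalyxin (Podxl), found on podocytes and on endothelium, was 1.62-fold higher (0.70 ± 0.11, adjusted p = 0.00575). Without day 28 replicate 2 the list had 6 called genes.

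Distal convoluted and connecting tubule genes had the highest median of the 38 lists. Of 10 tested, 8 were higher and none was lower, against 7.33% and 4.39% of all genes, with a median of 1.39. Slc12a3, the thiazide-sensitive sodium chloride cotransporter, was at 3.36, 3.33 and 3.31 at day 28, against 1.92, 0.55 and -0.14 at day 14 (2.56 ± 0.42, adjusted p = 0.00659). The epithelial calcium channel gene Trpv5 (3.02 ± 0.57) and the calcium buffer gene Calb1, calbindin (2.35 ± 0.55), were higher too, Trpv5 being well above background on 1 of the 3 day 14 arrays. Tissue kallikrein (Klk1), secreted by the connecting tubule, was 14.9-fold higher: 6.80, 6.59 and 6.18 at day 28, against 4.54, 3.09 and 0.25 at day 14. Its probe and those of Klk1b3, Klk1c2 and Klk1c8, which were 14.6- to 15.6-fold higher, belong to near-identical family members, so which of them carried the signal is uncertain. Without day 14 replicate 2 or 3 the list had 5 called genes, and without day 28 replicate 1 or 2 it had 2.

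The genes higher at day 28 varied among the day 14 arrays. Of these 852 genes, 622 had their highest day 14 value in replicate 1, or 73.0% against 41.1% of all genes. The lowest day 14 value was in replicate 3 for 540 of them, or 63.4% against 39.1% of all genes. The median SD of these genes was 0.15 at day 28, against 0.25 at day 14, and over all genes it was 0.11 at day 28, against 0.15 at day 14. The cortex score did not overlap between the vehicle ages, so a fit with the score as a covariate can hardly separate age from score. With this covariate limma called 0 genes, 859 had an unadjusted p under 0.05, and the smallest adjusted p was 0.158. The absence of calls therefore does not tell age and cortex content apart. In the covariate fit 709 of the 852 higher and 458 of the 510 lower genes kept their sign, with medians of 0.31 and -0.44. The median standard error was 0.27, against 0.13 without the covariate. The 3 cortical lists then had medians of -0.23, 0.40 and 0.08 for convoluted proximal tubule, glomerulus and distal tubule. For the first 2 lists, which make up the score, part of this follows from the construction.

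The vehicle pools of days 1 and 7 are given beside these values. The cortex score was 0.11 in the day 1 pool and -0.35 in the day 7 pool, between the day 14 mean of -0.48 ± 0.37 and the day 28 mean of 0.48 ± 0.12 (SD, n = 3 each). Slc5a2 stood at 5.82 in the day 1 pool and 4.95 in the day 7 pool, and Slc12a3 at 2.58 and 1.53, both higher at day 1 than at day 7. With 1 array each, on a slide of their own, the pools allow no test.

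**Figure D1:**
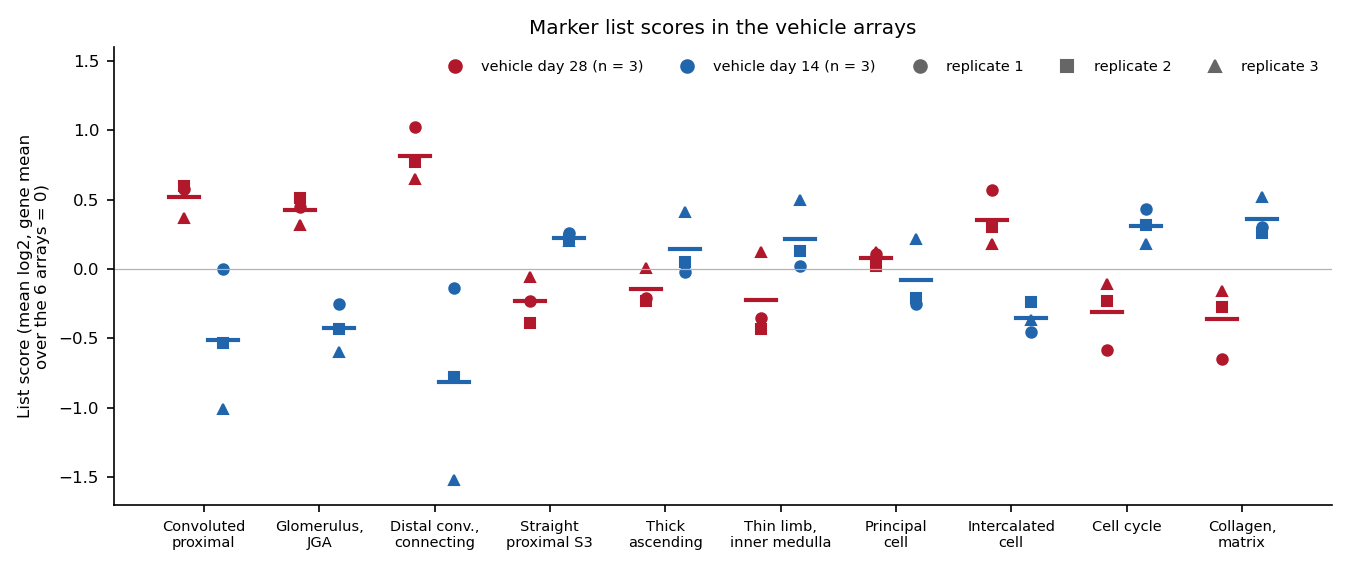
Marker list scores in the 3 vehicle day 28 arrays (red, left of each pair) and the 3 vehicle day 14 arrays (blue), as the mean log2 value over the genes of a list with each gene centred over the 6 arrays; symbols mark replicates, lines the group mean, and JGA stands for juxtaglomerular cells. The 3 cortical lists and the intercalated list sit higher at day 28 with no overlap, while the S3, cell cycle and collagen lists sit lower with no overlap.

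**Figure D2:**
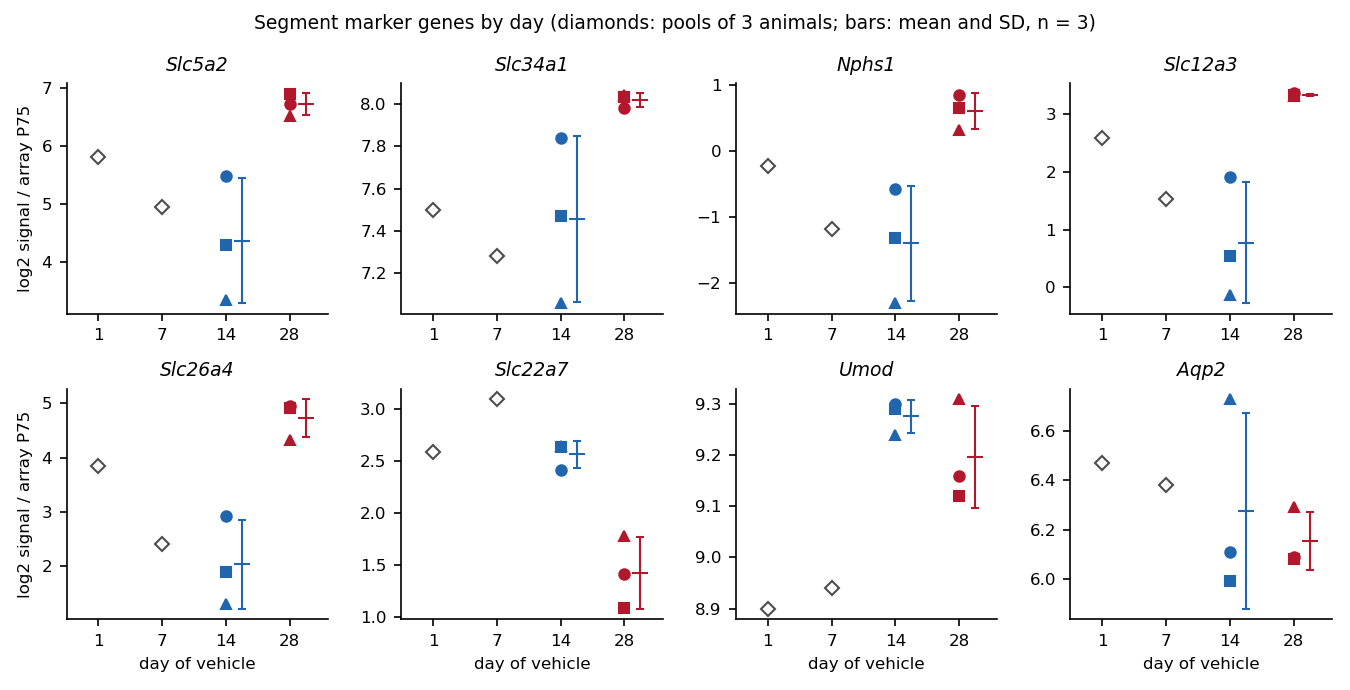
Log2 signal over the array's 75th percentile of 8 segment genes by day of vehicle; diamonds are the pools of 3 animals at days 1 and 7, symbols the replicates of days 14 (blue) and 28 (red), and bars their mean and SD (n = 3). Slc5a2, Nphs1, Slc12a3 and Slc26a4 are higher at day 28 than at day 14, Slc22a7 is lower, and Umod and Aqp2 overlap.

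Fewer genes were called in the S3, thick limb, thin limb and principal cell lists than in any of the 3 cortical lists. Most of those calls were lower at day 28. Of 12 S3 genes tested, 1 was higher and 2 were lower, against 7.33% and 4.39% of all genes, with a median of -0.34. Slc22a7, which encodes the organic anion transporter OAT2, was at 1.42, 1.09 and 1.78 at day 28, against 2.42, 2.64 and 2.65 at day 14 (-1.14 ± 0.20, adjusted p = 0.00833). All day 28 arrays lay below all day 14 arrays. Slc6a18, an amino acid transporter of the S3 brush border, was also lower (-0.56 ± 0.13, adjusted p = 0.0229), while the protease gene Napsa was higher (0.65 ± 0.17, adjusted p = 0.0348). With slide as a block the S3 median was 0.05, and the values were -1.02 for Slc22a7 and -0.18 for Slc6a18. Between the same ages of the ANP rats the S3 median was 0.11, with 8 of 12 genes above 0, and Slc22a7 was at 0.39.

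Of 14 thick ascending limb genes, 3 were lower and none was higher, against 4.39% and 7.33% of all genes. The median was -0.25. Epidermal growth factor (Egf), made in the thick limb and distal tubule, was at 5.34, 5.13 and 5.43 at day 28, against 5.65, 5.86 and 6.01 at day 14 (-0.54 ± 0.12, adjusted p = 0.0182). The tight junction gene Cldn19, needed for magnesium uptake in this limb, was lower (log2 ratio -0.84 ± 0.21), as was Ppp1r1a, a phosphatase inhibitor (-0.56 ± 0.15). The Slc12a1 cotransporter that defines the limb is not analysed here, since no probe could be matched to it. None of the 3 was called in all 6 fits that left out an array, and the list had between 0 and 5 genes called lower in them.

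Thin limb and inner medulla genes gave 2 lower and none higher of 10 (median -0.18), against 4.39% and 7.33% of all genes. Cryab, a small heat shock protein abundant in the medulla, was at 6.74, 6.70 and 7.13 at day 28, against 7.79, 7.85 and 8.01 at day 14 (-1.03 ± 0.12, adjusted p = 0.0023). The transporter gene Slc4a11 was lower (-2.06 ± 0.49), and the urea transporter gene Slc14a2 overlapped between the ages (-0.04 ± 0.18). Of 11 principal cell genes 1 was higher, against 7.33% of all genes: Hsd11b2, the enzyme that shields the mineralocorticoid receptor from glucocorticoids, at 5.31, 5.27 and 5.00 at day 28, against 4.08, 4.13 and 4.28 at day 14 (1.03 ± 0.11, adjusted p = 0.00208). The water channel gene Aqp2 was at 6.09, 6.08 and 6.29 at day 28 and at 6.11, 5.99 and 6.73 at day 14, which overlapped (-0.12 ± 0.31).

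Intercalated cells, the acid-base cells of the connecting tubule and collecting duct, showed higher values for 7 of 16 genes tested and lower for none (median 0.55). Of all genes 7.33% were higher and 4.39% lower. Pendrin (Slc26a4), the chloride-bicarbonate exchanger of bicarbonate-secreting intercalated cells, was at 4.95, 4.91 and 4.33 at day 28, against 2.92, 1.89 and 1.30 at day 14 (2.69 ± 0.41, adjusted p = 0.00519). Pendrin cells lie mainly in the cortex, and the receptor kinase gene Insrr, found in the same cells, was higher too (2.84 ± 0.41) and was well above background on 2 of the 3 day 14 arrays. Of the proton pump subunits shared by all intercalated cells, Atp6v1g3 was higher by 0.92 ± 0.16 and Atp6v1b1 by 0.64 ± 0.11. The transcription factor gene Foxi1, which specifies these cells, was at 3.13, 2.80 and 2.14 at day 28, against 1.65, 1.90 and 2.00 at day 14 (0.84 ± 0.21, adjusted p = 0.0271). With the cortex score as a covariate Slc26a4 was at 0.42, while Atp6v1g3 was at 1.21, Foxi1 at 1.01 and Hsd11b2 at 1.26, and none of them was called in that fit.

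**Figure D3:**
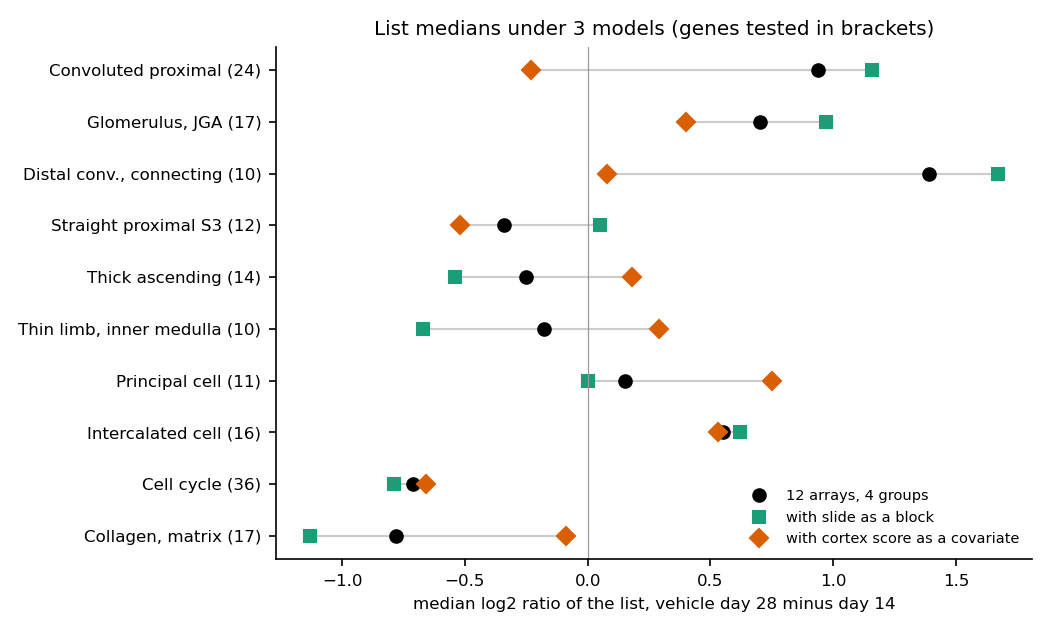
Median log2 ratio, vehicle day 28 minus day 14, of 10 gene lists in the fit of 12 arrays (circles), with slide as a block (squares) and with the cortex score as a covariate (diamonds). The cell cycle median lies between -0.79 and -0.66 in all 3, whereas the convoluted proximal tubule median is 0.94, 1.16 and -0.23 and the collagen median -0.78, -1.13 and -0.09.

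Cell division genes were lower at day 28. Of 36 genes of the cell cycle and DNA replication tested among 41 listed, 15 were lower and 1 was higher, against 4.39% and 7.33% of all genes. Of the 36, 34 had a log2 ratio below 0, and the median was -0.71. Cyclin B2 (Ccnb2), the partner of Cdk1 at entry into mitosis, was at -3.16, -2.66 and -2.69 at day 28, against -1.43, -1.62 and -1.84 at day 14 (-1.20 ± 0.25, adjusted p = 0.0144). Nusap1, which bundles spindle microtubules, was at -2.34, -2.03 and -1.90 at day 28, against -0.80, -1.05 and -1.13 at day 14 (-1.10 ± 0.17, adjusted p = 0.00551). Every day 28 array was below every day 14 array for 25 of the 36 genes, against 16.1% of all genes. In the pools Ccnb2 was at -2.35 at day 1 and -1.34 at day 7, and Nusap1 at -1.60 and -0.85.

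Mitotic kinase and kinetochore genes were among them. Polo-like kinase 1 (Plk1) had a log2 ratio of -0.94 ± 0.22, the kinetochore gene Cenpf -1.25 ± 0.27, the spindle midzone gene Prc1 -0.87 ± 0.24 and aurora kinase A (Aurka) -0.62 ± 0.16, all past the test. Aurkb, the kinase of the chromosomal passenger complex, was not well above background on any day 28 array and was at least 2.23-fold lower. It is counted among the 15 lower genes. It entered the test only through the day 14 arrays, where it is brighter, so its call is no independent support. Cyclin E1 (Ccne1), which drives entry into S phase, was at -4.92, -3.42 and -3.12 at day 28, against -2.26, -2.18 and -2.11 at day 14 (-1.64 ± 0.41). Cdk1 itself missed the threshold (-0.82 ± 0.24, adjusted p = 0.0504), as did the replication clamp gene Pcna (-0.19 ± 0.09, adjusted p = 0.198). Thymidylate synthase (Tyms), which makes a DNA precursor, was the 1 member that was higher (0.47 ± 0.11). Mki67 and Top2a are not analysed here.

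The cell cycle list had a similar median with slide as a block and with the cortex score as a covariate. It was -0.79 with the block and -0.66 with the covariate. Between day 28 and day 14 of the ANP rats, a contrast in other, treated animals, the median was -0.80, with 34 of 36 genes below 0. The day 14 scores of the list there were 0.61, 0.92 and 0.56, above the 0.43, 0.32 and 0.18 of vehicle day 14. The ANP contrast therefore starts from a higher level. Single calls depended on the arrays: 5, 3 and 7 members were called lower without day 14 replicate 1, 2 and 3, and 2, 3 and 12 without day 28 replicate 1, 2 and 3. Nusap1 was called in all 6 fits. Day 28 replicate 1 had the lowest score of the list, -0.58, against -0.23 and -0.11 in the other two.

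Many mitotic genes carry a CCAAT box, bound by NF-Y, and the letters TTTGAA, the cell cycle homology region through which the DREAM and B-Myb complexes act, near their start sites. Both were searched on both strands in the RefSeq promoters (GRCr8, 250 bases before to 50 after the start) and did not overlap each other in the promoters shown. CCAAT was present in 19 of 27 promoters of tested list members that could be matched, or 70.4%, against 37.7% of 27457 promoters, and TTTGAA in 12, or 44.4%, against 18.1%. Both together were in 10, or 37.0%, against 7.25%. The E2F-type letters GCGGGAA were in 5, or 18.5%, against 4.47%, and in 0 of the 12 matched members that were lower at day 28. Of these 12 members, 6 held both CCAAT and TTTGAA. The promoters of 4 of these 6 are shown as examples, with both elements in capitals, in genes whose values are given above. Ccnb2, also described above, carries both elements too and is not shown. Each promoter is given 5′ to 3′ on the strand of its gene: Plk1 at chr1:186147408-186147707 (+), Nusap1 at chr3:127057045-127057344 (+), Prc1 at chr1:143659231-143659530 (+) and Cenpf at chr13:103760837-103761136 (-).
Plk1: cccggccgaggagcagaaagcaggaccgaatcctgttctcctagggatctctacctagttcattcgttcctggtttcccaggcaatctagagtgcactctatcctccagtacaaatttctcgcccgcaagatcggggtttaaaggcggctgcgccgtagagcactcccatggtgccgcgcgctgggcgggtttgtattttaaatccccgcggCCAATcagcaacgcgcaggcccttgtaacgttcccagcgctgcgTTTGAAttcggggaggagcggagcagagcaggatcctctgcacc
Nusap1: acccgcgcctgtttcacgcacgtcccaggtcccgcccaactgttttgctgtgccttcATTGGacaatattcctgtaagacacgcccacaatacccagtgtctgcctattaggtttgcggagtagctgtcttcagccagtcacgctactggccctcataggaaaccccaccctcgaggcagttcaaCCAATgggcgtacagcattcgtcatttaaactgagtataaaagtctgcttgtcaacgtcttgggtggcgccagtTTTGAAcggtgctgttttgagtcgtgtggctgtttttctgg
Prc1: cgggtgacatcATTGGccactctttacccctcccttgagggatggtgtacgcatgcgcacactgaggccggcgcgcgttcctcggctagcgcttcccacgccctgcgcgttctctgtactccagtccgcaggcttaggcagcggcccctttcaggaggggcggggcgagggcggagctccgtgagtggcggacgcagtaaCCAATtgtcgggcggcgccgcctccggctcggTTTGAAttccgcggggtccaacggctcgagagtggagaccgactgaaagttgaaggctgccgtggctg
Cenpf: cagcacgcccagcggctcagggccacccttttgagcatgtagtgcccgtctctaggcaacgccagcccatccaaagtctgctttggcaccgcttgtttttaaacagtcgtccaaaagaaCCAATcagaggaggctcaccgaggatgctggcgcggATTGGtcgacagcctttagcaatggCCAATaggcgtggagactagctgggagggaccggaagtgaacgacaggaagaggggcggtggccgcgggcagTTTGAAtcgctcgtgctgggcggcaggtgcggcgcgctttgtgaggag
A match of letters is a description of the promoter and not evidence of binding in these kidneys.

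Collagen and matrix genes were also lower. Of 17 tested among 25 listed, 8 were lower and none was higher, against 4.39% and 7.33% of all genes. Of the 17, 15 had a log2 ratio below 0, and the median was -0.78. Col3a1, a fibrillar collagen of the interstitium, was at 0.78, 1.46 and 1.65 at day 28, against 2.59, 2.42 and 2.57 at day 14 (-1.23 ± 0.34, adjusted p = 0.0435). Col1a2 was at 2.56, 3.07 and 3.15 at day 28, against 3.83, 3.77 and 4.26 at day 14 (-1.03 ± 0.22, adjusted p = 0.0155). Col1a1, the other chain of type I collagen, was at 0.26, 1.38 and 1.28 at day 28, against 1.97, 1.87 and 2.26 at day 14, and did not pass the test (-1.06 ± 0.41, adjusted p = 0.123). Fibronectin (Fn1) was lower (-1.12 ± 0.28), and so was tenascin C (Tnc), a matrix protein of growing and injured tissue (-2.49 ± 0.40), with 1 of 3 day 28 arrays well above background. The imprinted fetal growth factor gene Igf2 overlapped (-0.26 ± 0.15).

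The collagen list gave other medians in the other fits. The median of the collagen list was -1.13 with slide as a block and -0.09 with the cortex score as a covariate, where Col3a1 was at -0.95, Col1a2 at -0.39 and Fn1 at 0.29. In the ANP rats the median between the ages was -0.80, with 17 of 17 genes below 0. With 1 array left out, 1 to 8 members were called lower; 1 was called without day 14 replicate 3, 1 without day 28 replicate 1 and 3 without day 28 replicate 2, and Tnc was called in all 6 fits. In the pools of days 1 and 7, Col3a1 was at 2.80 and 2.73, close to day 14.

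**Figure D4:**
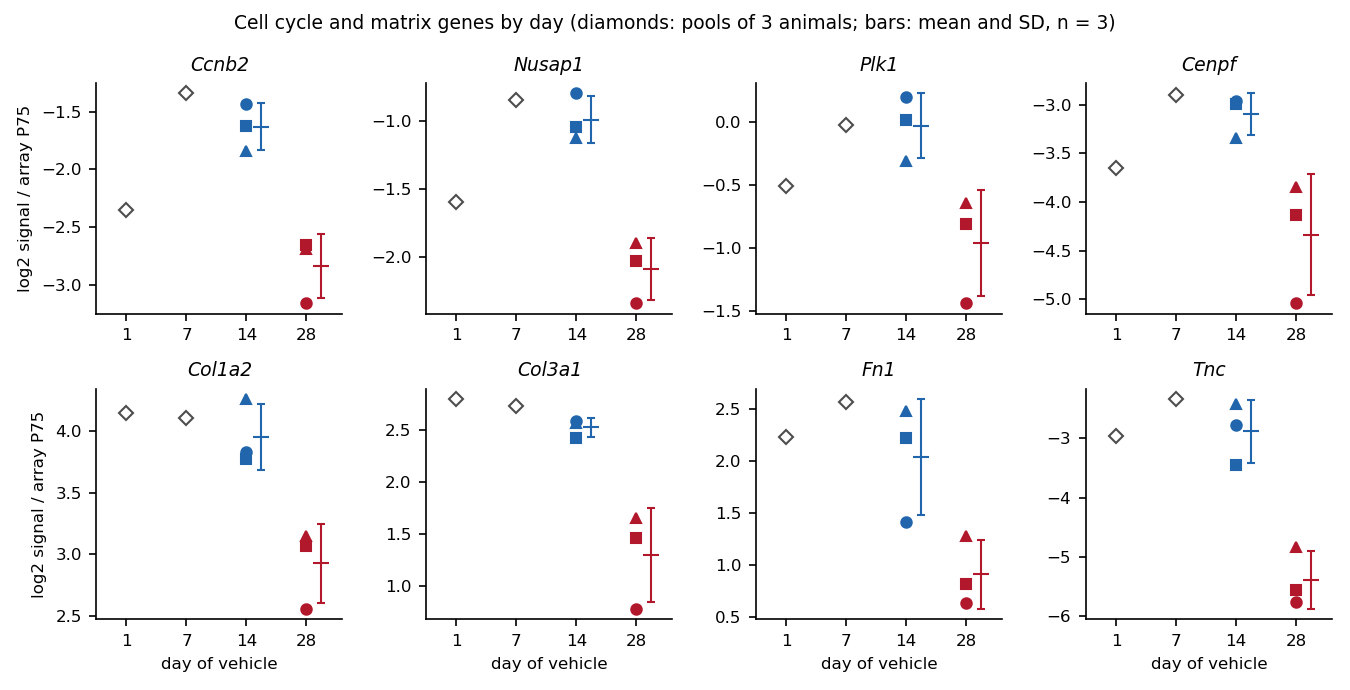
Log2 signal over the array's 75th percentile of 4 cell cycle genes (top) and 4 matrix genes (bottom) by day of vehicle; diamonds are the pools of 3 animals, symbols the replicates of days 14 (blue) and 28 (red), bars the mean and SD (n = 3). All 8 genes are lower at day 28 than at day 14, with no overlap.

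Among single genes well above background on all 6 arrays, the 15 with the highest ratios included, beside the kallikreins, Slc26a4 and the homeobox gene Hmx2 of intercalated cells (2.64 ± 0.36), several signalling genes. The ETS factor gene Etv1 was at 3.99, 3.92 and 3.39 at day 28, against 1.72, 0.68 and -0.05 at day 14 (2.98 ± 0.42, adjusted p = 0.00381). Gfra1, the co-receptor for the neurotrophic factor GDNF, was at 1.86, 2.09 and 0.98 at day 28, against -1.67, -0.49 and -1.31 at day 14 (2.80 ± 0.36, adjusted p = 0.00281). Its lowest day 14 value was in replicate 1. With the cortex score as a covariate Gfra1 was at 2.52 ± 0.82 and Etv1 at 0.92 ± 0.58 (SE). The acetylcholinesterase anchor gene Prima1 (2.84 ± 0.37), the secreted protein gene Ism1 (2.84 ± 0.42), the retinoid receptor gene Rxrg (2.68 ± 0.46) and reelin, Reln (2.61 ± 0.40), followed. With the covariate Prima1 was at 1.86, Ism1 at 0.48, Rxrg at 0.54 and Reln at 0.88. The aldo-keto reductase gene Akr1c1 (3.04 ± 0.69) and the muscle-type phosphoglycerate mutase gene Pgam2 (2.70 ± 0.73) had wider spreads. Of genes not well above background on any day 14 array, Crb1, Rab3b, Cldn24, Aqp5 and Cldn22 were at least 2.48- to 3.56-fold higher at day 28. They entered the test only through the day 28 arrays, so their calls are no independent support.

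Of the genes well above background on all 6 arrays, the called gene with the lowest ratio was Cldn14, a claudin that restrains calcium uptake in the thick limb of the mouse. It was at -2.19, -4.21 and -2.04 at day 28, against -0.56, -0.26 and 1.41 at day 14 (-3.01 ± 0.65, adjusted p = 0.0166), and at 0.12 in both pools. With the cortex score as a covariate it was at -0.05, and between the same ages of the ANP rats it was at 0.83 (adjusted p = 0.427). Smoc2, a secreted calcium-binding matrix protein, was at 1.75, 2.28 and 2.59 at day 28, against 4.08, 4.50 and 5.08 at day 14 (-2.35 ± 0.32, adjusted p = 0.00347). Ccn6, of the CCN family of secreted proteins (-2.26 ± 0.50), and the adhesion gene Kirrel3 (-2.10 ± 0.49) were lower. With the covariate Ccn6 was at -2.22 ± 1.15 and Kirrel3 at -2.92 ± 1.09 (SE). With slide as a block they were at -1.14 and -1.27, and between the same ages of the ANP rats at -0.69 and 0.18. The Wnt ligand gene Wnt10a, the homeobox gene Alx1, the immune checkpoint gene Vtcn1, the collectin gene Colec12, the lipase gene Liph, Nrn1l, Rexo5 and the fatty acid carrier gene Fabp4 had log2 ratios between -2.26 and -1.60, all past the test. With the covariate Wnt10a was at 0.28, Alx1 at -0.23, Vtcn1 at -0.24, Colec12 at -0.80, Liph at -0.19 and Nrn1l at -0.44. Smoc2 was at -0.89 in that fit. Of genes not well above background on any day 28 array, Kcnb2, Pola2, Aurkb, Plk5 and Comp were at least 2- to 2.78-fold lower. These genes entered the test only through the day 14 arrays, so their calls are no independent support.

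Vitamin D, calcium, phosphate and hormone genes were counted next. Of 14 vitamin D, calcium and phosphate genes, 6 were higher and none was lower (median 0.68), against 7.33% and 4.39% of all genes. Of these 6, 4 (Trpv5, Calb1, Slc34a3 and Kl) are also in the cortical lists. With 1 array left out the list had between 3 (without day 28 replicate 1 or 2) and 7 genes called higher. Cyp24a1, which degrades active vitamin D, was at 1.63, 2.03 and 0.99 at day 28, against 0.05, -0.49 and -1.99 at day 14 (2.36 ± 0.59, adjusted p = 0.0281), and the parathyroid hormone receptor gene Pth1r was higher by 1.02 ± 0.18. Of 21 sex hormone and growth hormone genes 2 were higher and 1 was lower, against 7.33% and 4.39% of all genes. Igfals and Igfbp3, which carry IGF-1 in the blood, were higher by 1.69 ± 0.26 and 1.26 ± 0.33, and the prolactin receptor gene Prlr was lower (-0.83 ± 0.22).

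Genes that vary with sex, time of day or injury were looked at as checks. Cyp2c11, the male-specific P450 of rat liver, was at 2.45, 3.59 and -2.13 at day 28 and at 1.32, 3.99 and 2.99 at day 14 (-1.46 ± 1.25, adjusted p = 0.502), with day 28 replicate 3 far below the other 5 arrays. The clock genes Dbp, Per1, Bmal1 and Nr1d1 overlapped between the ages. None of the 15 clock genes was called, against 11.7% of all genes. Dbp was at 3.93 in day 28 replicate 1 and between 5.13 and 5.86 in the other 5 arrays, and Bmal1 was at 1.05 in the same array and between -0.69 and 0.20 in the others. The immediate early gene Fos (-0.11 ± 0.67) and the tubular injury marker Havcr1 (0.00 ± 0.54) overlapped. Gapdh, a glycolytic enzyme often used for scaling, was higher by 0.40 ± 0.10 (adjusted p = 0.033).

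The same contrast in the ANP rats used none of the vehicle arrays, although it shares the estimate of spread. It gave 434 genes higher at day 28 and 213 lower, 3.73% and 1.83% of those tested. Of the 852 genes higher in the vehicle rats 810 were above 0 in the ANP rats, or 95.1% against 54.9% of all genes, and 294 were called higher there. Of the 510 lower genes 456 were below 0, or 89.4% against 45.1% of all genes, and 84 were called lower. The cortex score of the ANP rats was -0.14, 0.02 and -0.10 at day 28, against -0.74, -1.01 and -1.06 at day 14. A test of the difference between the vehicle and ANP contrasts (limma, interaction) called 0 genes, with 1091 at an unadjusted p under 0.05 and a smallest adjusted p of 0.263. The ANP day 28 arrays lay on a slide of their own, and those rats had been dosed with ANP for longer than the ANP day 14 rats. Age, slide and length of dosing therefore cannot be told apart in the ANP contrast.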

How the data were processed

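Total RNA was labelled with Cy3 and hybridised to 1-colour Agilent rat arrays. Fluorescence intensity was deposited as Feature Extraction output, per the file headers version 10.7.1.1 and per the submitters' processing notes 10.7, already background-subtracted (the processed signal). The authors' deposited value table of ratio values is each processed signal over its array's 75th percentile, as a comparison with the scanner files showed (r of at least 0.9999, medians 0.099 to 0.108, direction and scale thus settled). Flags of other kinds in the deposited files (well above background, saturation, outlier) were used as given. Here log2 of the processed signal minus log2 of the array's 75th percentile was taken, control probes and outlier-flagged spots were left out, and probes were named by unversioned RefSeq accession from a RefSeq table of assembly GRCr8: 27460 of 61657 probes matched 15284 genes and 34197 stayed unnamed. The brightest probe stands for a gene. Of the called genes, 722 had several probes and 33 of those had a probe with the opposite sign. A gene was tested where the flag for signal over background was set in the 3 arrays of either vehicle group, using limma 3.58.1 (R 4.3.3) on 12 arrays in 4 groups, with Benjamini-Hochberg adjustment over 11628 genes. On simulated data of that comparison (11619 genes, 200 of them changed) the test recovered 78% of genes changed by 1 log2 unit and 34% of those changed by 0.5. Of the calls, 4.27% were false. The simulation drew each gene independently, with no slide effect and no variation in cortex shared between genes. These rates therefore do not carry over to the measured arrays.

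For a lower bound, the bright group's mean was set over a mean for the dim group in which each array gave the detection floor, its dimmest detected probe, or the probe's own signal if that was brighter. Named genes were the 15 largest increases and 15 largest decreases among called genes detected on every vehicle array whose groups did not overlap, at most 5 lower bounds in each direction, members of 38 gene lists and a fixed panel; some genes that this rule names are not reported here. The samples, members and lists were chosen with earlier results of these data known, so counts within lists are descriptions. Alternatives varied scaling, background correction, filter, probe choice, samples, slide, cortex score, array weights and replicates. The normexp alternative used the median foreground signal, since the mean signal is not among the columns used here.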

Additional observations from a re-analysis of the deposited data

How the results depend on the processing

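The counts of genes higher and lower at day 28 (852 and 510) stayed within 1.5 times under array median scaling, quantile normalisation, the authors' value table, the mean of a gene's probes, a filter on all 6 arrays and no filter. Array weights gave 1408 and 1020, the 6 vehicle arrays alone 442 and 275, and normexp with quantile normalisation 935 and 823. With slide as a block 1 and 1 were called and with the cortex score as a covariate 0 and 0. Leaving out 1 array gave 327 to 996 higher and 132 to 616 lower genes. Replicate numbers do not mark a shared animal, and residuals of same-numbered arrays correlated at only 0.03 to 0.17; the fit with the replicate block gave 884 and 565. For probes without a gene name (724 and 470), array weights gave 1675 and 1127, normexp with quantile normalisation 1107 and 826, no filter 363 and 196, the 6 vehicle arrays alone 221 and 177, the slide block 0 and 0, the covariate 0 and 0, and leaving out 1 array 171 to 1098 and 76 to 647. The cortex score difference of 0.96 kept its direction in each alternative it was computed for (scaling, background, filter, probe choice, value table, other marker lists and 1 array left out), from 0.78 without day 14 replicate 3 to 1.14 without day 14 replicate 1. With 1 array left out its direction could not change, since the scores of the groups did not overlap. The score difference was not computed with the slide block, array weights or replicate block.

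With the cortex score as a covariate the sign turned for Slc5a2 (-0.09), Slc5a12 (-0.14), Slc22a8 (-0.57), Slc34a3 (-0.21), Wt1 (-0.20), Nphs1 (-0.34), Calb1 (-0.48), Klk1 (-0.48), Klk1b3 (-0.19), Klk1c2 (-0.64), Klk1c8 (-0.56), Pgam2 (-0.30), Napsa (-0.10), Igfbp3 (-0.32), Cyp24a1 (-0.39), Cyp2e1 (-0.22), Cyp4a1 (-0.20), Wnt10a (0.28), Cldn24 (-0.18), Comp (0.11), Cldn19 (0.12), Ppp1r1a (0.12), Fn1 (0.29), Slc6a6 (0.09) and Slc5a3 (0.19). It also turned for the medians of convoluted proximal tubule (-0.23), thick ascending limb (0.18), thin limb and inner medulla (0.29), endothelium (0.41), urothelium (-0.34), lymphocytes (-0.39), MHC class II (-0.06), fetal growth genes (0.05), nephron development (0.21), organic ion transporters (-0.44), osmolytes (0.30), oxidative phosphorylation (-0.07), gluconeogenesis (-0.12) and tubular injury (0.19). The slide block turned the medians of S3 (0.05), smooth muscle (-0.43), sex and growth hormone genes (0.11) and P450 genes (0.21). Normexp with quantile normalisation turned smooth muscle (-0.15) and brought oxidative phosphorylation to 0.00, which quantile normalisation alone put at -0.02, and leaving out 1 array gave the fetal list -0.18 to 0.02, above 0 only without day 14 replicate 3. Small sign changes, by less than the spread between replicates, also occurred for immediate early genes (-0.10 with the slide block), lymphocytes (-0.12), smooth muscle (-0.02) and endothelium (0.02) without day 14 replicate 3, and nephron development (0.01 with the mean of a gene's probes). Several of the turned gene values listed before these lay within their standard error too. With the covariate Klk1 was at -0.48 ± 0.91, Klk1c2 at -0.64 ± 0.89 and Pgam2 at -0.30 ± 1.26 (SE). Beyond members of the score, the cause was not tested. Of the 106 genes named in the text, 25 turned their sign with the covariate. A further 65 kept their sign but were weaker or no longer called, among them Alx1 (-0.23), Vtcn1 (-0.24) and Liph (-0.19). With slide as a block 90 of the 106 were weaker or no longer called. Of the 90 named genes that were called, 38 were called in every fit that left out 1 array. All 90 kept their sign in those fits, which is fixed in advance wherever the groups do not overlap.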

Other observations

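Metabolic genes that were not described above were also called. Of 22 fatty acid oxidation genes 6 were higher at day 28 and none was lower, against 7.33% and 4.39% of all genes (median log2 ratio 0.22), and 3 to 8 were higher with 1 array left out, 3 without day 28 replicate 1 or 2. Of 21 cytochrome P450 genes 4 were higher and none was lower, against 7.33% and 4.39% of all genes. Among the 4 were Cyp2e1 (1.66 ± 0.33, limma) and the fatty acid hydroxylase gene Cyp4a1 (1.47 ± 0.31), while the median of the 21 genes was -0.20. Without day 14 replicate 2 or day 28 replicate 1, 0 of the P450 genes were called higher (limma), without day 28 replicate 2 there was 1, and the other 3 fits had 2 to 4. Without day 28 replicate 3, 1 P450 gene was called lower. None of 19 oxidative phosphorylation genes was called, against 11.7% of all genes, while 17 were above 0 (median 0.13). With the cortex score as a covariate 5 of the 19 were above 0. The metallothionein gene Mt1, which binds zinc and copper and responds to glucocorticoids, was at 8.33, 8.52 and 8.48 at day 28, against 7.16, 6.83 and 6.05 at day 14 (1.76 ± 0.28, adjusted p = 0.00546). Of 13 heat shock genes 3 were higher, such as Hspb8 (1.04 ± 0.23), and none was lower, against 7.33% and 4.39% of all genes. Without day 14 replicate 2, day 28 replicate 1 or day 28 replicate 2, 0 of the heat shock genes were called higher, and without day 14 replicate 3 there was 1.

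Osmolyte handling, by which medullary cells balance the salt and urea around them, gave 3 lower and 1 higher of 10 genes (median -0.69). Of all genes 4.39% were lower and 7.33% higher. Between 0 and 6 osmolyte genes were lower with 1 array left out, 6 without day 14 replicate 1. The taurine transporter gene Slc6a6 was at 1.63, 1.25 and 1.37 at day 28, against 1.87, 2.53 and 2.94 at day 14 (-1.03 ± 0.26), and the inositol transporter gene Slc5a3 was at 3.72, 3.25 and 3.74 at day 28, against 4.10, 4.45 and 5.17 at day 14 (-1.01 ± 0.26). The mitochondrial arginase gene Arg2 was lower (-0.79 ± 0.19), and the urea transporter gene Slc14a1 of vasa recta was higher (0.48 ± 0.14, adjusted p = 0.0496). Of 12 endothelial genes 2 were higher, against 7.33% of all genes, with the VEGF receptor gene Kdr at 0.63 ± 0.10. Both called adipocyte genes of 9, Fabp4 and Pparg (-1.15 ± 0.16), were lower, against 4.39% of all genes, and all 9 ratios were below 0. With slide as a block 7 of the 9 were below 0, and with the cortex score as a covariate 5 were. Of 23 interferon-response genes 22 were below 0 (median -0.43), while 51.1% of all genes were above 0, and none passed the test. With slide as a block 12 of the 23 were below 0 (median -0.06), and with the covariate 20 were (median -0.32). None of 7 blood and erythroid genes and none of 16 lymphocyte genes was called, against 11.7% of all genes. All 7 blood and erythroid genes were below 0 (median -0.53), also with slide as a block (median -1.02). With the covariate 4 of the 7 were below 0 (median -0.14). Between the same ages of the ANP rats all 7 were above 0 (median 0.44). Of the 16 lymphocyte genes 11 were above 0 (median 0.11). Of 13 nephron development genes 1 was higher and 1 was lower, against 7.33% and 4.39% of all genes. These were the transcription factor gene Lhx1 (1.38 ± 0.26) and the Notch ligand gene Jag1 (-1.02 ± 0.28).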
